A study of Mus musculus with 34 samples.

Results

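The Janus kinases are the 4 genes Jak1, Jak2, Jak3 and Tyk2, of 8252 with a probe set of their own on the array. They were found by symbol in the platform's probe-to-gene table, which gave 5 probe sets of the 12488 on the Affymetrix MG-U74Av2 array: 98911_at for Jak1, 101457_at and 96488_at for Jak2, 99509_s_at for Jak3 and 97573_at for Tyk2. The arrays measured RNA of mouse bone-marrow-derived macrophages, cells grown from marrow for 7 days with CSF-1, the growth factor of macrophages. The study asked how IL-10 and IL-6 act on macrophages exposed to lipopolysaccharide (LPS), a bacterial cell wall component. Cultures from IL-10-/-, IL-6-/- and wild-type mice were given 100 ng/ml of LPS for 45 or 180 min with IL-10 at 10 ng/ml, with IL-6 at 2 ng/ml (45 min only), or alone. There were 2 arrays a group, biological replicates by their titles. IL-6-/- cells with LPS alone had a single array per time, which was assumed to vary like those of the other groups. The groups were compared with each other and with 4 arrays of resting cells, for which the labels give no genotype. The labels name L-cell conditioned medium as the CSF-1 source of the resting cells and mCSF for the stimulated ones, so medium and stimulation cannot be told apart in comparisons with resting cells. In all, 32 of 34 arrays fell into 16 groups. The number of mice behind the arrays is not given in the labels, so the p-values reflect the spread of arrays alone.

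Janus kinases are cytoplasmic tyrosine kinases that sit on the inner tails of cytokine receptors, which have no kinase of their own. When a cytokine joins the receptor chains, the kinases phosphorylate each other, the chains and the STAT transcription factors that dock there, and SOCS proteins and phosphatases shut the signal off again. The IL-10 receptor uses Jak1 and Tyk2, and the IL-6 receptor, through gp130, uses Jak1, Jak2 and Tyk2. Jak2 alone serves the receptors of erythropoietin, growth hormone and GM-CSF, and Jak3 pairs with the common gamma chain of the IL-2 family of receptors. The arrays report messenger RNA and say nothing of kinase activity.

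The promoters of the Jak1 and Jak2 genes are shown because these members passed the test described below in the most comparisons. The windows come from RefSeq on build GRCm38.p6 and hold the 250 bases before the annotated gene start, read 5′ to 3′ on the gene's strand, with CpG dinucleotides in capitals. All 4 members matched an entry of that table. The Jak1 window is chr4:101265224-101265473 on the minus strand and the Jak2 window is chr19:29251553-29251802 on the plus strand.
Jak1: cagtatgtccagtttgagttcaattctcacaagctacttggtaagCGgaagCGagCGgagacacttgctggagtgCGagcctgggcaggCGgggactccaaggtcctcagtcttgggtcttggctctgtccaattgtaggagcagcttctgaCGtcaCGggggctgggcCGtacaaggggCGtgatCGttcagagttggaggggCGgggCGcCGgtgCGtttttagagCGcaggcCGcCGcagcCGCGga
Jak2: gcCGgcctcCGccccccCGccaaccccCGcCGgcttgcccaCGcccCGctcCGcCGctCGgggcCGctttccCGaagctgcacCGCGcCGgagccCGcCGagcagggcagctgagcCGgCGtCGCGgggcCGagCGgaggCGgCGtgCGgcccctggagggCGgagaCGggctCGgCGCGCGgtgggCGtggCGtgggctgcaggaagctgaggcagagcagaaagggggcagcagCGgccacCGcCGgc
The Jak2 window was 80.8% G or C with 37 CpG dinucleotides, and 0.992% of the 32851 windows in the table were as rich in G and C. The Jak1 window was 61.2% G or C with 19 CpG dinucleotides, which 25.2% of windows reached or passed in G and C. Jak3 and Tyk2 had 52.4% and 57.2% G or C with 8 and 19 CpG dinucleotides, against a median window of 52.4% and 6. Both strands of the 300 bases from 250 before to 50 after each start were searched for the STAT-type GAS motif TTCNNNGAA, which reads the same on both strands and occurs in 8.3% of all such windows. These letters did not occur in the windows of the 4 members, which says nothing of sites elsewhere or of the factors.

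The values are MAS5 signals, the linear brightness of a probe set after the authors scaled every array to a common mean. Signals of different probe sets cannot be set against each other, so each gene is compared with itself. A change is a difference of log2(signal + 50) with its standard error from a limma fit over all 32 arrays. A call is a Benjamini-Hochberg adjusted limma p under 0.05 over 8224 probe sets, those whose signal reached 200 on 2 or more grouped arrays. All 5 member probe sets passed that filter. Jak1 and Jak3 exceeded 200 on all 32 arrays, as did Jak2 by 101457_at, while 96488_at lay below 200 on 25 of 32 arrays and passed through a few high ones. A further probe set, 101873_at, lists both Jak3 and Insl3. It was not counted as a member, and its signal ran from 15.8 to 224.0.

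Before the members, the arrays were checked as a whole. The macrophage markers on the array, such as Csf1r, Cd68 and Adgre1 (F4/80), all had a median signal of at least 200 (10 of 10). Of 11 lymphocyte markers the T cell genes Cd3e, Cd3d, Cd3g, Cd2 and Cd8a stayed at or under 117.1 and the natural killer cell gene Ncr1 at or under 129.5. The others gave more signal: Cd4 ran from 270.8 to 767.5, Ms4a1 from 137.6 to 458, Cd79a from 70.7 to 497.9, Cd79b from 27.3 to 391.8 and Zap70 from 26.6 to 581.7. The summed lymphocyte list was 1288 to 1962 at 180 min, 901.2 to 2109 at 45 min and 1094 to 1569 in resting cells. The 9 stromal markers summed to 5147 to 10000 at 180 min and 5464 to 10230 at 45 min, against 948 to 2530 in resting cells, and the 9 neutrophil markers to 1178 to 3944 at 180 min, 534.6 to 1133 at 45 min and 1334 to 3343 in resting cells. Stromal signal moved with the comparisons against resting cells and with the IL-6-/- genotype (5147 to 5895 in IL-6-/-, 8361 to 10230 in IL-10-/- and 7755 to 10000 in wild type, over all stimulated arrays). The neutrophil sum moved with the step between 45 and 180 min. It also moved with added IL-10 at 180 min, with 2363 to 2425 against 1230 to 1351 for LPS alone in IL-10-/-, 3457 to 3944 against 1356 in IL-6-/- and 1875 to 1956 against 1178 to 1268 in wild type. Among the neutrophil markers S100a8 ran from 71.5 to 3022.3 over the grouped arrays. Mpo stayed at or under 146.4, Ly6g at or under 126.7 and Ltf at or under 207.8. Camp reached 610.3, Ngp 547.8, S100a9 527.9, Elane 436.4 and Mmp8 379. The part of these marker signals in the results was not tested. In RNA of whole cultures, fewer cells of a type and less RNA per cell cannot be told apart. The probe sets of the targeted genes gave signal in their own knockouts. At 180 min of LPS alone Il10 averaged 1522 in IL-10-/- and 2983 in wild type. Il6 was 1014 in the lone IL-6-/- array and averaged 3606 in wild type. At 45 min of LPS alone the knockouts read higher, with Il10 at 6185 against 2523 and Il6 at 617.8 against 215.8. These probe sets thus check neither genotype.

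**Figure D1:**
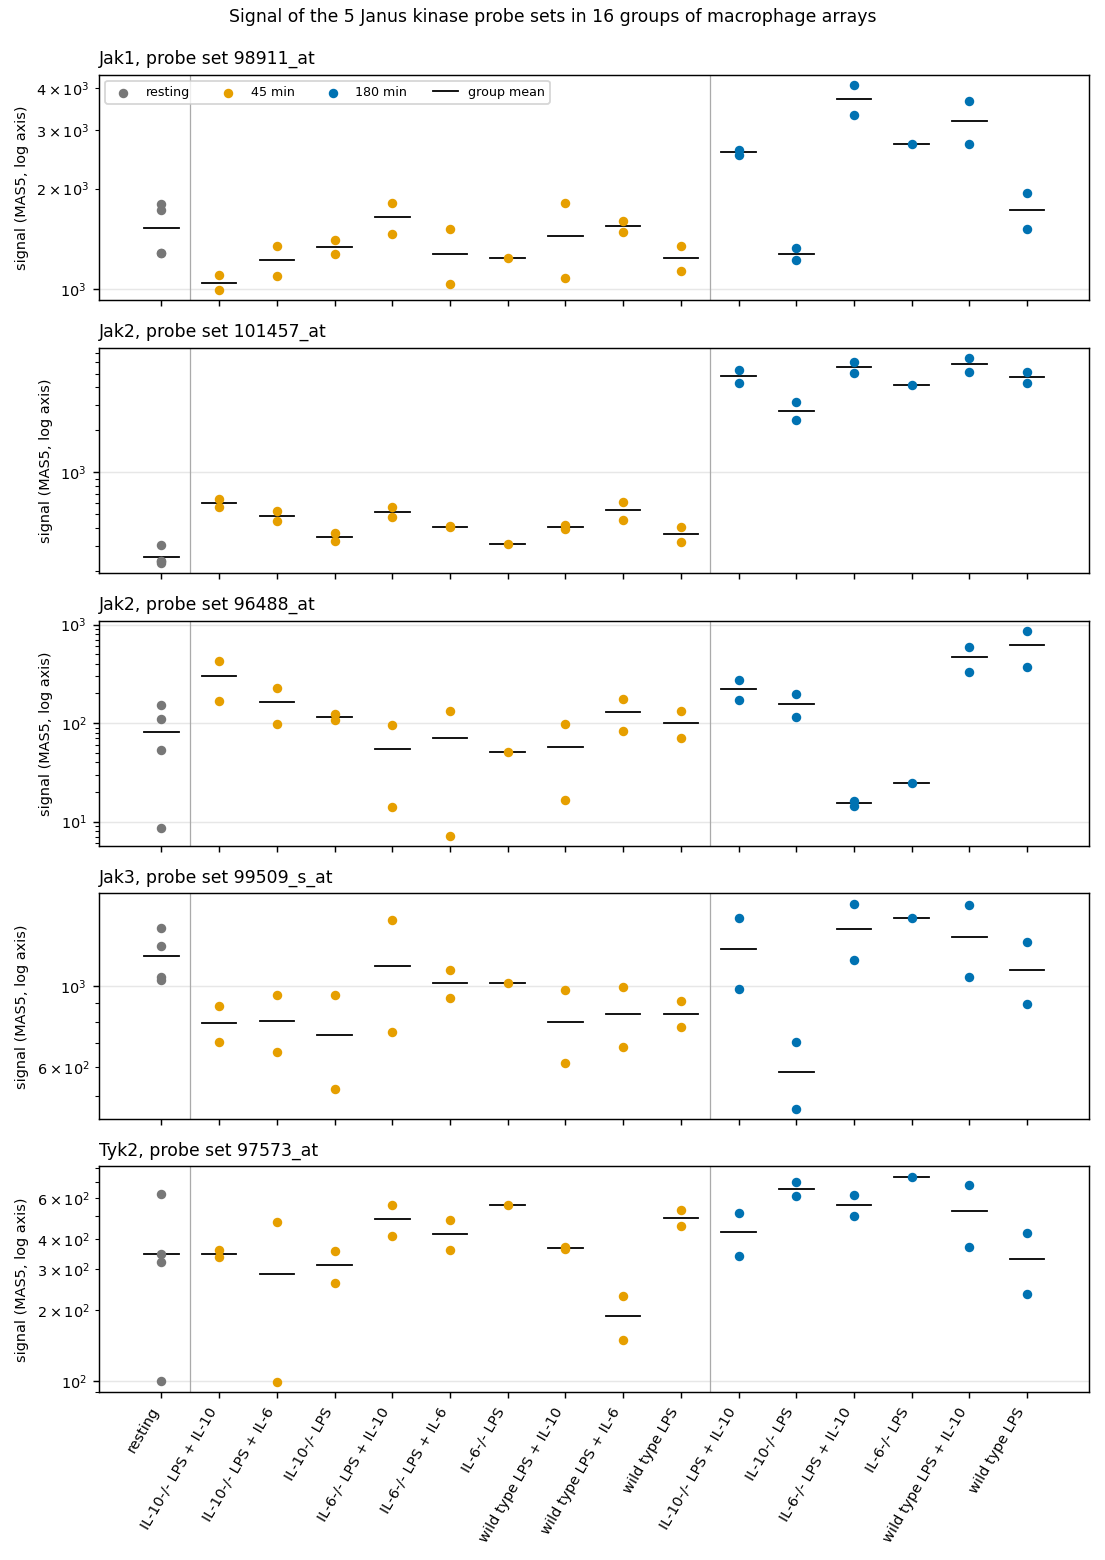
Signal of the 5 Janus kinase probe sets on every grouped array (points) with the group mean (bar), on log axes, by group and time. Jak2 by 101457_at lies between 2323.9 and 6477.0 at 180 min and at or under 646.5 elsewhere, while Tyk2 shows no such step.

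Jak2, the kinase of the erythropoietin, GM-CSF and interferon gamma receptors, had the largest response of the family. By probe set 101457_at, resting cells gave 225.6, 232.0, 232.7 and 303.8. All 17 grouped arrays at 45 min lay between 311.2 and 646.5 with a median of 420.5. All 11 grouped arrays at 180 min lay between 2323.9 and 6477.0 with a median of 5015. Over the grouped arrays the 3 stages did not overlap in any genotype or arm. The 45 min LPS array whose title names no genotype, left out of the groups, read 285.9, within the resting range. The other array left out, whose title and protocol disagree on the time, read 4962.3. Of the 8224 probe sets, 3.54% had every 180 min array above every 45 min array, 9.19% had every 180 min array above resting, and 5.17% had every 45 min array above resting.

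In wild type, LPS gave Jak2 signals of 5164.5 and 4262.8 at 180 min, against the resting values above, a 16-fold rise (standard error 0.18 on the log2 scale, adjusted p = 1.34e-14, n = 2 against 4). Only Jak2 passed among the members, with both of its probe sets, in a comparison that called 33.8% of probe sets. At 45 min wild-type LPS arrays read 405.6 and 319.8, a change of 0.47 ± 0.18 that did not pass (adjusted p = 0.0807). It passed when resting replicate 4, the 303.8 array, was left out (0.55, adjusted p = 0.0388). At 45 min limma called none of the 5 member probe sets (1 had an unadjusted p under 0.05), and 16.7% of all probe sets were called.

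The step between 45 and 180 min was called for Jak2 in each of the 6 arms measured at both times, in comparisons that called 7.03% to 17.1% of all probe sets. With LPS alone it was 2.80 ± 0.21 in IL-10-/-, 3.53 ± 0.30 in IL-6-/- and 3.53 ± 0.21 in wild type. With LPS and IL-10 it was 2.88 ± 0.21 in IL-10-/-, 3.28 ± 0.21 in IL-6-/- and 3.67 ± 0.21 in wild type. The mean of the 6 arms was 3.28 ± 0.09, a 9.73-fold rise (adjusted p = 4.55e-19). Among all probe sets, 41.8% were called in this mean comparison, and the size of the Jak2 change stood at percentile 99.6 of all sizes. The step with LPS alone was smaller by 0.73 ± 0.30 in IL-10-/- than in wild type, a difference that did not pass (adjusted p = 0.348; 1.12% of probe sets called).

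The second Jak2 probe set, 96488_at, was also called higher at 180 min in wild type, and was called in neither knockout. Wild-type arrays at 180 min read 333.2 and 592.3 with IL-10 and 368.1 and 864.3 with LPS alone, against 16.7 to 176.4 at 45 min and 8.5 to 153.9 in resting cells. The rise over resting was 2.39 ± 0.54 (adjusted p = 0.00115) and was lost without wild-type LPS 180 min replicate 2 (1.82, adjusted p = 0.0583). The step over 45 min in wild type was 2.07 ± 0.62 with LPS (adjusted p = 0.0257; 13.9% of probe sets called) and 2.32 ± 0.62 with LPS and IL-10 (adjusted p = 0.0107; 15.2% called). Leaving out 1 array ended these calls in 3 cases for LPS (WT LPS 180 min replicate 2 and either 45 min replicate, adjusted p from 0.0559 to 0.256) and in 2 cases for LPS with IL-10 (replicate 2 at either time, adjusted p = 0.12 and 0.165).
In IL-6-/- cells the same probe set read 14.5 and 16.3 with IL-10 and 24.6 with LPS alone at 180 min, the lowest group levels of all 16. The gene's other probe set read 6065.3, 5014.9 and 4133.3 on those 3 arrays. In IL-10-/- cells at 180 min, 96488_at read 172.9 and 272.0 with IL-10 and 113.8 and 196.8 with LPS alone. Against wild type, IL-6-/- was lower by 2.92 ± 0.62 with LPS and IL-10 (adjusted p = 0.0491; 0.182% of probe sets called). That call sat at the threshold and was lost when any 1 of its 4 arrays was left out (adjusted p from 0.0506 to 0.505). Between these groups the stromal sum was 5598 to 5674 in IL-6-/- against 8731 to 10000 in wild type. The neutrophil sum was 3457 to 3944 in IL-6-/- against 1875 to 1956 in wild type. The part of either was not tested. With LPS alone, IL-6-/- was lower by 3.05 ± 0.76, which did not pass (adjusted p = 0.124; 0.182% called). The mean step over the 6 arms did not pass either (0.57 ± 0.27, adjusted p = 0.101). Its step over 45 min was 0.29 with LPS and -0.26 with LPS and IL-10 in IL-10-/- (adjusted p = 0.799 and 0.857), and -0.43 with LPS and -0.56 with LPS and IL-10 in IL-6-/- (adjusted p = 0.883 and 0.629). The 2 Jak2 probe sets thus disagreed on the step in both knockouts, and the statements on Jak2 in those genotypes hold for 101457_at alone. The positions of the probes in the transcript are not given in the sources used here.

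Jak1, which serves the IL-10 and IL-6 receptors, the interferon receptors and the common gamma chain receptors, showed no change with LPS in wild type that passed the test. Wild-type LPS arrays read 1512.6 and 1932.9 at 180 min, against 1722.8, 1282.7, 1797.0 and 1283.7 in resting cells, a change of 0.18 with a 95% interval from -0.25 to 0.61 (adjusted p = 0.55). At 45 min they read 1346.9 and 1133.3, a change of -0.27 with an interval from -0.70 to 0.16 (adjusted p = 0.397). The 45 min arrays of all arms lay between 990.7 and 1812.4 and overlapped the resting range.

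A rise between 45 and 180 min was called for Jak1 in all 3 arms that received LPS and IL-10. It was 1.26 ± 0.24 in IL-10-/- (adjusted p = 5.78e-04; 12.9% of probe sets called), 1.16 ± 0.24 in IL-6-/- (adjusted p = 0.00122; 15.6% called) and 1.15 ± 0.24 in wild type (adjusted p = 0.00131). The wild-type call was lost without the 1074.4 array, replicate 1 at 45 min (0.79, adjusted p = 0.0704). With LPS alone Jak1 changed by -0.07 in IL-10-/- (adjusted p = 0.891; 17.1% called) and by 0.45 in wild type (adjusted p = 0.242), neither of which passed. The lone IL-6-/- arrays read 2722.3 at 180 min and 1237.4 at 45 min, a change of 1.11 ± 0.34 that passed narrowly (adjusted p = 0.0484; 7.03% called; 0.0662 with no filter on low signals and 0.0793 without the intensity trend). The mean over the 6 arms was 0.84 ± 0.11 (1.79-fold, adjusted p = 4.26e-07), in a comparison that called 41.8% of probe sets.

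**Figure D2:**
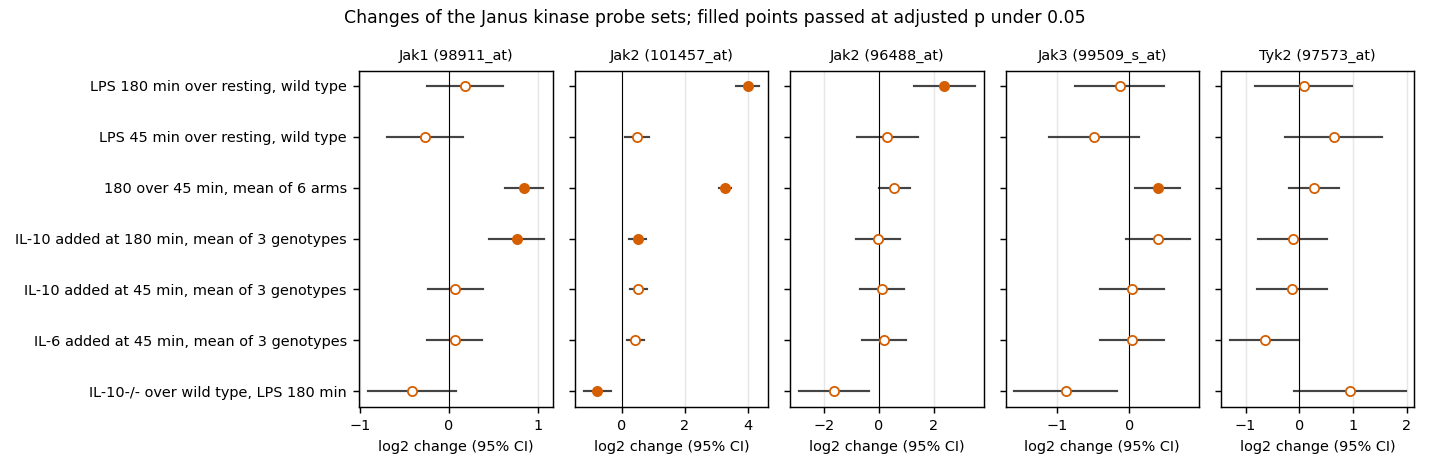
Log2 changes (points) with 95% intervals (bars) of the 5 probe sets in 7 comparisons, the first-named group over the second; filled points had an adjusted p under 0.05. The horizontal scale differs between panels. In the mean step between the times, Jak2 by 101457_at changed by 3.28, Jak1 by 0.84 and Jak3 by 0.40.

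Jak1 and Jak2 (101457_at) were both higher with added IL-10 at 180 min of LPS, averaged over the 3 genotypes. With IL-10, Jak1 read 2608.1 and 2522.4 in IL-10-/-, 4094.9 and 3327.2 in IL-6-/- and 2713.4 and 3657.4 in wild type. With LPS alone it read 1322.1 and 1223.5 in IL-10-/-, 2722.3 in IL-6-/- and 1512.6 and 1932.9 in wild type. Within each genotype every IL-10 array was above every array without it, as for 2.93% of the tested probe sets, though the IL-6-/- array with LPS alone reached into the IL-10 range of the other genotypes.
The mean Jak1 change was 0.76 ± 0.15 (1.69-fold, adjusted p = 0.00227), in a comparison that called 3.82% of probe sets. Of the 5 member probe sets 2 were called. The neutrophil marker sum given above was also higher with IL-10 in each genotype, and its part was not tested. By genotype the Jak1 change was 0.98 ± 0.24 in IL-10-/- (adjusted p = 0.0153; 3.54% of probe sets called), 0.43 ± 0.29 in IL-6-/- (adjusted p = 0.95; 0.207% called) and 0.86 ± 0.24 in wild type (adjusted p = 0.267; 0.134% called). The IL-10-/- call did not survive leaving out any 1 of its 4 arrays (adjusted p from 0.0774 to 0.152), while its change then ran from 0.93 to 1.04. The IL-10 effect on Jak1 differed between IL-10-/- and wild type by 0.12, with an interval from -0.58 to 0.82 (adjusted p = 0.999; 0.559% called).

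Jak2 (101457_at) at 180 min read 5304.7 and 4299.8 with IL-10 and 3133.0 and 2323.9 with LPS alone in IL-10-/-. In IL-6-/- it read 6065.3 and 5014.9 with IL-10 and 4133.3 with LPS alone, and in wild type 6477.0 and 5148.4 with IL-10 and 5164.5 and 4262.8 with LPS alone. The ranges overlapped in wild type and stood apart in both knockouts, as they did upwards for 9.82% of the tested probe sets. The mean change was 0.51 ± 0.13 (1.42-fold, adjusted p = 0.0245). It was lost without any 1 of 5 arrays, namely IL-10-/- LPS replicate 2, IL-10-/- with IL-10 replicate 1, IL-6-/- with IL-10 replicate 1, wild-type LPS replicate 2 or wild-type with IL-10 replicate 1 (adjusted p from 0.0894 to 0.112). In IL-10-/- alone it was 0.81 ± 0.21 (1.76-fold, adjusted p = 0.0257), and it was lost without LPS replicate 2 or either replicate with IL-10 (adjusted p = 0.449, 0.371 and 0.056). It was 0.41 in IL-6-/- (adjusted p = 0.903) and 0.30 in wild type (adjusted p = 0.999). The difference between IL-10-/- and wild type was 0.52, with an interval from -0.10 to 1.13 (adjusted p = 0.914). The second Jak2 probe set, 96488_at, did not show the mean rise. Its mean change with IL-10 was -0.03, with an interval from -0.83 to 0.77 (adjusted p = 0.998). By genotype it was 0.41 in IL-10-/-, -0.19 in IL-6-/- and -0.32 in wild type.

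**Figure D3:**
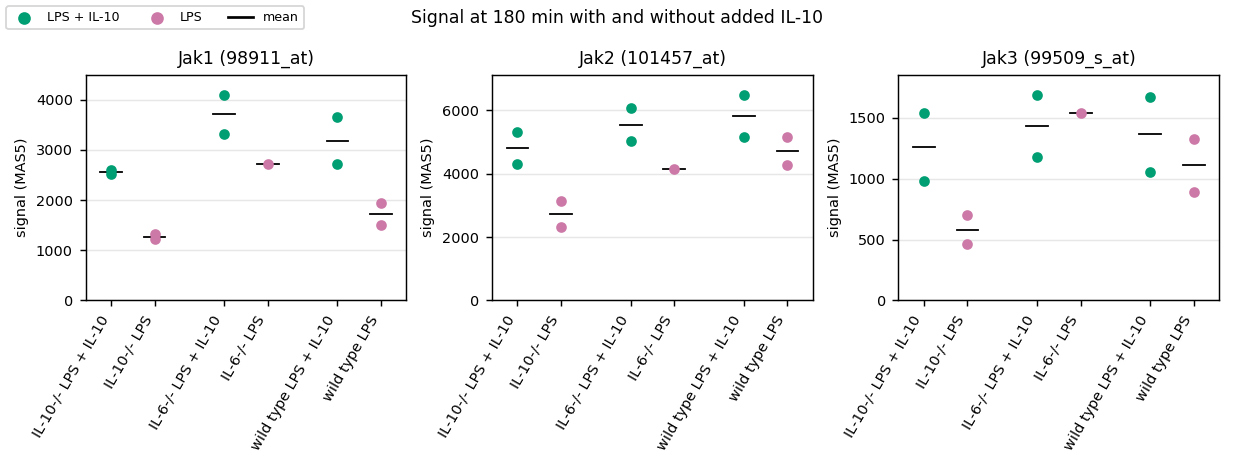
Signal of Jak1, Jak2 and Jak3 at 180 min with LPS and IL-10 (green) and with LPS alone (pink), by genotype, as single arrays (points) and means (bars). For Jak1 every IL-10 array lies above the LPS arrays of its own genotype, and the IL-10-/- arrays with LPS alone are the lowest in every panel.

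At 45 min limma called no member with either cytokine in the mean over the genotypes, and 1 of 5 member probe sets, Jak2 by 101457_at, had an unadjusted p under 0.05 with each. Jak2 read 646.5 and 567.9 in IL-10-/-, 565.0 and 483.3 in IL-6-/- and 392.6 and 420.5 in wild type with added IL-10. With LPS alone it read 371.2 and 321.8 in IL-10-/-, 311.2 in IL-6-/- and 405.6 and 319.8 in wild type. The arrays with and without IL-10 overlapped in wild type and stood apart in both knockouts, where 5.4% of the tested probe sets did so upwards. The mean IL-10 effect was 0.52 ± 0.13 (adjusted p = 0.0576; 1.03% of probe sets called), about the size of the effect at 180 min. It passed at a pseudocount of 10 (adjusted p = 0.044), with a signal filter of 500 (0.0334) and after quantile normalization (0.04).
With added IL-6 Jak2 read 527.7 and 449.1 in IL-10-/-, 407.3 and 412.7 in IL-6-/- and 609.1 and 460.1 in wild type, a mean effect of 0.43 ± 0.13 (adjusted p = 0.344; 0.547% called). Every IL-6 array was above every LPS array of its genotype, which held for 1.57% of the tested probe sets. IL-10 and IL-6 differed in their effect on Jak2 by 0.09, with an interval from -0.16 to 0.34 (adjusted p = 1; 0.219% called). The 2 comparisons share their LPS arrays. Jak1 moved by 0.07 with IL-10 and 0.06 with IL-6, and Jak3 by 0.04 with each, with intervals that all spanned 0. The second Jak2 probe set, 96488_at, moved by 0.11 with IL-10 and 0.19 with IL-6, with intervals that also spanned 0. Tyk2 moved by -0.14 with IL-10, with an interval from -0.79 to 0.51. With IL-6 Tyk2 moved by -0.65, a larger change than that of Jak2, with an interval from -1.295 to 0.001.

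Jak2 (101457_at) was lower in IL-10-/- than in wild type at 180 min of LPS alone, a difference not seen past the threshold at 45 min. At 45 min it averaged 346.5 in IL-10-/- and 362.7 in wild type. The change was -0.05 with an interval from -0.49 to 0.38 (adjusted p = 0.962), where 0.377% of probe sets were called. At 180 min the IL-10-/- arrays read 3133.0 and 2323.9, against 5164.5 and 4262.8 in wild type, a decrease by 0.79 ± 0.21 (1.73-fold lower, adjusted p = 0.0398). Of the 5 member probe sets 1 was called, and 2.87% of all were. It was lost without IL-10-/- replicate 2 or either wild-type replicate (adjusted p from 0.0948 to 0.463), and at a pseudocount of 10 (0.0523), after quantile normalization (0.0763) and without the intensity trend (0.0564). With IL-10 supplied the IL-10-/- arrays read 5304.7 and 4299.8, against 6477.0 and 5148.4 in wild type, a change of -0.27 with an interval from -0.71 to 0.16 (adjusted p = 0.946; 0.219% called). Jak1 changed by -0.41 ± 0.24 and Jak3 by -0.88 ± 0.35 between IL-10-/- and wild type under LPS, and neither passed (adjusted p = 0.563 and 0.246). The second Jak2 probe set, 96488_at, changed by -1.62 ± 0.62, which did not pass either (adjusted p = 0.229). Tyk2 pointed the other way with 612.2 and 701.4 in IL-10-/-, against 235.0 and 426.5 in wild type (0.94 ± 0.50, adjusted p = 0.496).

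Jak3, best known from lymphocytes, gave signal in these macrophage cultures on every array, from 459.4 to 1686.8. Of the lymphocyte markers above, the CD3 genes stayed at or under 117.1 while Cd4 and Zap70 reached 767.5 and 581.7. Its probe set carries the suffix _s_, used by the manufacturer for probes that can match more than 1 transcript. It read 1446.3, 1039.7, 1287.1 and 1058.9 in resting cells, and its changes with LPS in wild type did not pass (-0.49 at 45 min, adjusted p = 0.281; -0.13 at 180 min, adjusted p = 0.786). The lowest group was IL-10-/- with LPS at 180 min, at 459.4 and 703.6, and with IL-10 that genotype read 985.0 and 1541.2. The groups did not overlap, as for 20% of the tested probe sets in that direction, and the change of 1.05 ± 0.35 did not pass (adjusted p = 0.118).
Over the 6 arms Jak3 was higher at 180 than at 45 min by 0.40 ± 0.15 (1.32-fold, adjusted p = 0.0399), a call lost without any 1 of 10 arrays (adjusted p from 0.066 to 0.0958). Those were replicate 1 of the 45 min groups IL-10-/- LPS, IL-10-/- LPS with IL-10, IL-6-/- LPS with IL-10, wild-type LPS and wild-type LPS with IL-10. The others were replicate 2 of the 180 min groups IL-10-/- LPS, IL-10-/- LPS with IL-10, IL-6-/- LPS with IL-10, wild-type LPS and wild-type LPS with IL-10. It was also lost with no filter (0.0566) and without the trend (0.0555). In the single arms limma called Jak3 in none of 6, with 1 at an unadjusted p under 0.05. Those arms called 7.03% to 17.1% of all probe sets, and the mean over the 6 arms called 41.8%.

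The array numbered 2 was above the array numbered 1 in 13 of 13 groups for Jak3, by a median of 1.46-fold. A one-way order in all 13 groups held for 3.36% of the tested probe sets. For Jak2 (101457_at) number 1 was above number 2 in 11 of 13 groups, with a median ratio of number 2 to number 1 of 0.828. The labels do not say what the number stands for beyond a biological replicate.

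**Figure D4:**
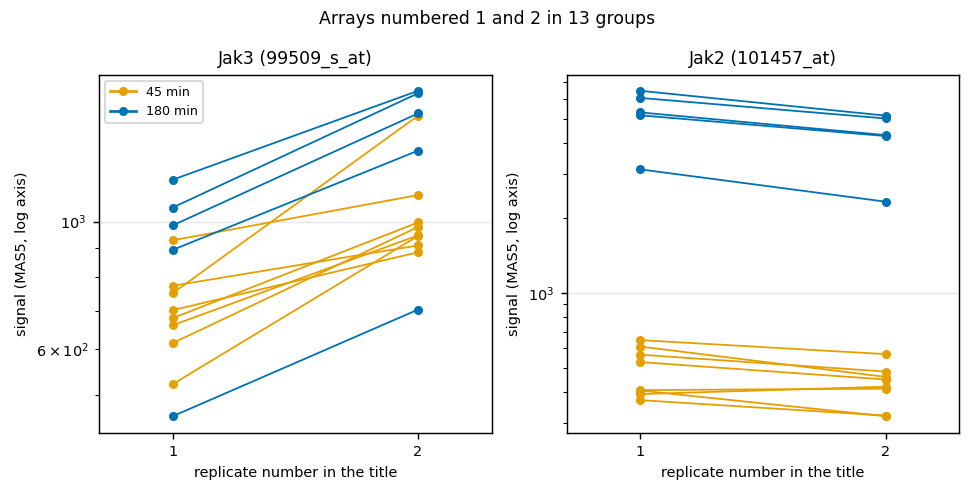
Signal of Jak3 (left) and Jak2 by 101457_at (right) on the arrays numbered 1 and 2 in the 13 groups with 2 arrays, joined within a group, on log axes. All 13 Jak3 lines slope up, and 11 of 13 Jak2 lines slope down.

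Tyk2, the partner of Jak1 at the IL-10 and type I interferon receptors, was called by limma in none of the 36 comparisons, with 2 at an unadjusted p under 0.05. Those comparisons called 0% to 41.8% of all probe sets. Its signal ran from 99.0 to 737.1 and spread widely within groups. The resting arrays alone read 622.5, 318.8, 347.1 and 99.9, and the IL-10-/- arrays with LPS and IL-6 read 99.0 and 472.4. The change with LPS in wild type was 0.08 at 180 min with an interval from -0.82 to 0.98, and the mean step between the times was 0.27 with an interval from -0.19 to 0.73 (adjusted p = 0.917 and 0.36). The widest gap to added cytokine was in wild type at 45 min, with 149.5 and 228.9 with IL-6 and 456.4 and 531.0 with LPS alone (-1.20 ± 0.50, adjusted p = 0.713; 0.219% of probe sets called).

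Ordered by the group mean of log2(signal + 50), with signal means given here, Jak2 (101457_at) had all 6 groups at 180 min on top, from 5813 ± 939 in wild type with LPS and IL-10 to 2728 ± 572 in IL-10-/- with LPS (SD, n = 2 each), and the resting group last at 248.5 ± 37 (SD, n = 4). Arrays of adjacent groups stood clear of each other at 6 of 15 neighbouring places. In these counts a lone IL-6-/- array was also taken as clear, though it has no spread of its own. For Jak2 those at 4133.3 and 311.2 were clear on both sides. No share over all probe sets was computed for such counts. Jak1 ran from 3711 ± 543 in IL-6-/- with LPS and IL-10 at 180 min to 1044 ± 75.9 in IL-10-/- with LPS and IL-10 at 45 min (SD, n = 2 each), and 2 of 15 places were clear. For Jak3, Tyk2 and Jak2 by 96488_at, 1, 3 and 1 of 15 were clear, so most neighbours in those orders did not differ beyond their arrays. Over the 16 group means, the log2 values of Jak1 correlated with those of Jak2 (101457_at) at r = 0.8 and with those of Jak3 at r = 0.79, and the 2 Jak2 probe sets with each other at 0.34. These points share arrays, times and arms, and the correlations are descriptions.

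The genes most like each member over the 16 group means were picked by Pearson's r. For Jak2 they were Rcl1 (0.988), Rhou (0.987) and Hif1a (0.982), the oxygen-sensing transcription factor subunit. For Jak2 the points fall into 180 min groups and all others, so r mostly reflects the step between them. For Jak1 they were Dtx2 (0.929), Inpp5b (0.925), an inositol phosphatase, and Cdk16 (0.925). For Jak3 they were Vav1 (0.917) and Rac2 (0.885), a guanine nucleotide exchange factor and a small GTPase of blood cells, and Dgka (0.868), a diacylglycerol kinase. For Tyk2 they were Rtn1 (0.818), Cop1 (0.809) and Fxr1 (0.805). By rank correlation over the same groups other genes came first for Jak1 (Cdc42se2), for Jak2 (Agfg1) and for Tyk2 (Sprr3, 0.847), while Vav1 stayed first for Jak3. Rtn1, Fxr1 and Sprr3 had low signals, with group means from 52.75 to 221.4, from 116 to 294.4 and from 35.95 to 201.4.

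Rcl1, which encodes a protein of ribosomal RNA processing, is also the protein-coding gene next to Jak2 in the RefSeq order of genes, a place looked up after its values were seen. It read 1054.6 to 3579.2 on the 180 min arrays, 50.8 to 297.7 at 45 min and 18.7 to 285.5 in resting cells. On the log2(signal + 50) scale it was higher by 4.27 with LPS at 180 min than in resting cells and by 3.36 in the mean step between the times. These are descriptions, since the same group means picked the gene, and they depend on the added 50 where the lower signals are small. Its lowest 180 min arrays, 1386.7 and 1054.6, were the 2 IL-10-/- arrays with LPS alone, as for Jak2. Among the 10 nearest protein-coding genes of Jak2, 3 were tested, and the others did not follow: Ak3 had r = -0.30 and Plgrkt r = -0.32 with Jak2, with changes at 180 min over resting of 0.40 and -0.33 that did not pass (adjusted p = 0.54 and 0.356).

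**Figure D5:**
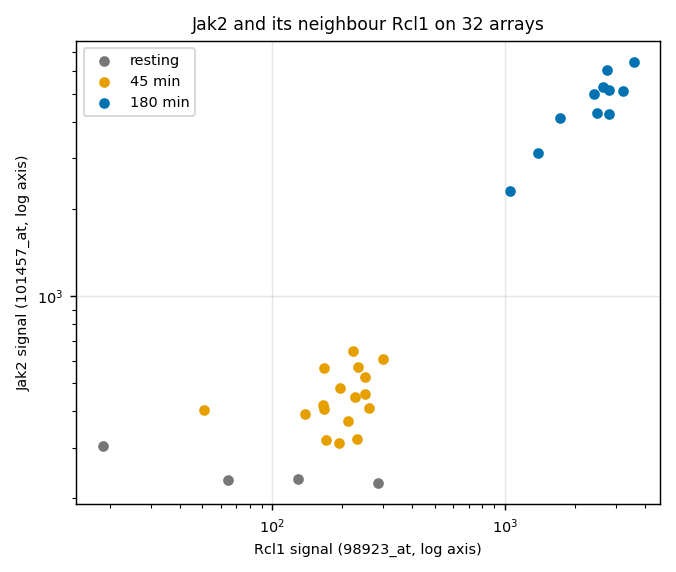
Signal of Jak2 (101457_at) against that of the neighbouring gene Rcl1 on the 32 grouped arrays, on log axes, by time. The 180 min arrays lie at or above 2323.9 for Jak2 and at or above 1054.6 for Rcl1, apart from all 45 min and resting arrays.

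The rest of the pathway was read from lists of known members, counted after LPS for 180 min in wild type against resting cells, where 33.8% of probe sets passed. Of 24 tested receptor chains that bind Janus kinases, 8 rose, 2 fell and 14 did not pass, with a median of 0.02 against -0.09 over all probe sets. The chain of the IL-4 and IL-13 receptors, Il4ra, rose 7.44-fold, the oncostatin M receptor Osmr 4.03-fold, the interferon receptor chain Ifnar1 2.53-fold and Il15ra 2.46-fold. Of 11 ligands 6 rose and 5 did not pass (median 1.05), led by Il6 (39.5-fold), Il12b (17-fold), Il10 (8.13-fold) and Il15 (4.23-fold). All folds are of signal + 50, and that of Il6 depends on the added 50, since its resting signal averaged 64.8. Among 5 STAT genes Stat5a rose 4.4-fold and Stat3 1.7-fold, Stat6 fell (0.677-fold) and 2 did not pass. Of 14 brakes 7 rose, 2 fell and 5 did not pass (median 0.68), with the feedback inhibitors Socs3 up 149-fold, Socs1 6.56-fold and Cish 2.89-fold, and the phosphatase Ptpn1 up 2.39-fold.
Of 15 other cytoplasmic tyrosine kinases tested, none rose and 4 fell, namely Fes (0.282-fold), Csk (0.354-fold), Abl1 (0.451-fold) and Btk (0.486-fold), and 11 did not pass. In the mean step between the times 2 rose (Syk 1.88-fold and Fgr 1.48-fold), 5 fell and 8 did not pass.

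In that mean step, where 41.8% of all probe sets were called, 7 receptor chains rose, 6 fell and 11 did not pass (54.2% called). Il4ra (3.36-fold), Il15ra (2.62-fold) and Ifnar2 (2.39-fold) were higher at 180 min, and the IL-7 receptor chain Il7r was lower by 1.81 on the log2 scale. All 5 STAT genes changed, 3 upwards (Stat5a 4.56-fold, Stat5b 1.79-fold, Stat3 1.63-fold) and 2 downwards (Stat6 0.663-fold, Stat4 0.788-fold). Of the brakes 6 rose, 3 fell and 5 did not pass, with Socs1 up 3.78-fold and Ptpn1 2.97-fold, and of the ligands 6 rose and 5 did not pass.

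With added IL-10 at 180 min, averaged over the 3 genotypes, 3.82% of all probe sets were called. Il4ra rose 3.1-fold (1 of 24 receptor chains), Stat3, the factor that IL-10 signals through, rose 1.86-fold (1 of 5), and limma called none of the 15 other tyrosine kinases, with 0 at an unadjusted p under 0.05. Of 14 brakes Ptpn1 rose 2.29-fold and Cish fell (0.532-fold), and of 11 ligands Il10 rose 1.94-fold while Csf2 and Il6 fell (0.194-fold and 0.319-fold). These means include Il10 in IL-10-/- and Il6 in IL-6-/- cells, the targeted genes themselves. Each of these genes changed more in IL-10-/- than in wild type. On the log2 scale Il4ra changed by 4.05 in IL-10-/- and 0.54 in wild type. Stat3 changed by 1.53 and 0.45, and Ptpn1 by 2.73 and 0.53. In wild type alone limma called no gene of these lists, and 0.134% of all probe sets. In IL-10-/- against wild type at 180 min of LPS, where 2.87% of all probe sets were called, 2 of 24 receptor chains were lower, Il4ra (0.086-fold) and the shared IL-6 family chain Il6st (0.445-fold). Of 11 ligands 3 were higher, Csf2 by 5.53 on the log2 scale, Il6 6.83-fold and Il12b 4.03-fold. Il10, the gene targeted in these cells, was lower (0.521-fold). Of 5 STAT genes Stat3 was lower (0.481-fold), and of 14 brakes Ptpn1 (0.214-fold) and Ptpn6 (0.542-fold) were lower and Cish was higher (1.84-fold). Limma called none of the 15 other tyrosine kinases, with 3 at an unadjusted p under 0.05. The mean IL-10 comparison and the genotype comparison share the IL-10-/- and wild-type arrays with LPS alone.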

How the data were processed

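RNA of mouse macrophages was labelled with biotin and read on 34 one-colour arrays. The values are intensity values deposited by the authors, made with MAS5 per the submitters' processing notes, whose version is not given in the sources used here. Each array's 2% trimmed mean lay between 500.29 and 500.40, so arrays had been scaled before deposit and were not scaled again. The number of arrays limits the precision. Titles gave the groups, and 2 arrays were left out of every comparison: 1 title lacks a genotype, and for 1 the title and protocol disagree on the time.

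The platform table lists 11251 probe sets (10855 with 1 symbol, 396 with several), and 1237 are not listed. After leaving out 66 controls, 8224 probe sets passed a filter of 200 in 2 arrays. Limma 3.58.1 in R 4.3.3 fitted log2(signal + 50) with 1 mean per group and an intensity trend (16 residual and 7.575 prior degrees of freedom), checked on simulated data. There were 36 comparisons, with 2-sided p-values adjusted by Benjamini-Hochberg within each. Genes are given by their probe set of highest mean, and all member probe sets are given. Named genes were the members, Il10, Il6, the 3 genes most like each member and up to 4 called genes per list and comparison with the largest changes, with Fgr and Stat4 named to complete counts. Members and lists were chosen with earlier results of these data known. The lists were receptor chains, ligands, STATs, brakes, other cytoplasmic tyrosine kinases and markers of macrophages, lymphocytes, neutrophils and stromal cells. Other settings tried were pseudocounts of 10 and 200, testing without a filter, a filter of 500, quantile normalization, no trend, a replicate block and 30 fits that each left out 1 array; the 2 lone IL-6-/- arrays with LPS alone were kept in all of them.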

Additional observations from a re-analysis of the deposited data

Results flagged for a closer look

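Among the 4 resting arrays, replicate 4 read 303.8 for Jak2 (101457_at), far above the others at 225.6 to 232.7. Its gap was 0.909 of the range, past Dixon's 95% critical value for 4 samples, which chance passes in about 1 of 20 groups. Added IL-10 at 45 min moved Jak1 in opposite ways in the knockouts: up in both IL-6-/- arrays and down in both IL-10-/- arrays against LPS alone, a gap of 0.723 on the log2 scale. That difference was not tested, and 8.72% of the tested probe sets moved in opposite ways like this. The array whose title and protocol disagree on the time read 2908.7 for Jak1 and 4962.3 for Jak2 (101457_at), above every resting array (at most 1797.0 and 303.8).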

How the results depend on the processing

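Of the 36 comparisons, 28 kept their number of called Janus kinase probe sets (within 1.5 times) under all 7 other settings and 29 on leaving out 1 array. The 23 called values of single member probe sets kept their call in 150 fits and lost it in 11 under other settings, and kept it in 112 and lost it in 36 with 1 array left out; no called value turned its sign. A pseudocount of 10 called 1 member probe set in place of 2 in the step from 45 to 180 min with LPS in wild type, 1 in place of 0 for IL-10 at 45 min (mean), and 0 in place of 1 for IL-10-/- against wild type with LPS and for IL-6-/- against wild type with LPS and IL-10, both at 180 min. Quantile normalization gave 1 for IL-10 at 45 min and 0 for that IL-10-/- comparison, and a filter of 500 gave 1 for IL-10 at 45 min. No filter gave 1 in place of 2 for the LPS step in IL-6-/- and 0 for IL-6-/- against wild type with LPS and IL-10. Leaving out the trend gave 1 for that step and 0 for both genotype comparisons. With 1 array left out, the count ran from 0 to 1 for LPS at 45 min over resting, 1 to 2 for LPS at 180 min over resting, 1 to 2 for the LPS step in wild type, 0 to 1 (in place of 2) for IL-10 at 180 min in IL-10-/-, 1 to 2 for IL-10 at 180 min (mean), 0 to 1 for IL-10-/- against wild type with LPS, and was 0 for IL-6-/- against wild type with LPS and IL-10.
The replicate number was not taken to pair the arrays, since deviations of same-numbered arrays correlated at 0.0204 to 0.441 over 23 pairs (median 0.12) and only 13 passed 0.1. With the number as a replicate block, the count was 1 in place of 0 for LPS at 45 min over resting, IL-10 at 45 min in IL-10-/-, IL-10 at 45 min (mean) and IL-6-/- against wild type with LPS at 180 min, and 3 in place of 1 for IL-10-/- against wild type with LPS. Among single values, the block called Jak3 for IL-10 at 180 min in IL-10-/- (adjusted p = 0.0047) and in the mean (0.0473), for IL-10-/- against wild type with LPS (0.0235) and for the step with LPS and IL-10 in wild type (0.023). Over all probe sets the block called 509 in place of 314 for IL-10 at 180 min (mean) and 459 in place of 236 for IL-10-/- against wild type with LPS.
Signs turned only for values that were not called. The Tyk2 change with LPS at 180 min over resting was -0.43 with the block and -0.33 to 0.45 with 1 array left out. The change of 96488_at with IL-10 at 180 min (mean) was 0.076 with the block and -0.22 to 0.16 with 1 array left out. Also with 1 array left out, 96488_at ran from -0.021 to 0.62 for LPS at 45 min over resting, Jak3 from -0.40 to 0.14 for LPS at 180 min over resting, Jak1 from -0.13 to 0.00 (0.003) for the LPS step in IL-10-/-, Tyk2 from -0.26 to 0.01 (0.009) for IL-10 at 180 min, and the Jak1 difference in IL-10 effect between IL-10-/- and wild type from -0.09 to 0.33. The causes were not tested. Low signal limits 96488_at, which lay below 200 on 25 of 32 arrays.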

Other observations

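For the other probe sets, the array whose title and protocol disagree on the time read 22.9 for Jak2 (96488_at), 976.5 for Jak3 and 324.5 for Tyk2. The array whose title names no genotype read 1534.8 for Jak1, 285.9 and 8.1 for the Jak2 probe sets 101457_at and 96488_at, 935.8 for Jak3 and 375.5 for Tyk2.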
